A study of Rattus norvegicus with 16 samples.

Results

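The genes described here encode 5 proteins of the contractile apparatus of the heart muscle cell: the myosin heavy chains alpha (Myh6, ENSRNOG00000025757) and beta (Myh7, ENSRNOG00000016983), skeletal alpha-actin (Acta1, ENSRNOG00000017786), cardiac alpha-actin (Actc1, ENSRNOG00000008536) and cardiac troponin I (Tnni3, ENSRNOG00000018250). They were chosen by identifier from the 32545 genes of the deposited files, as 5 well known contractile genes that include the pairs whose balance is often followed in the heart, and the rule set no threshold on a measured value. All 5 were among the 13607 genes expressed highly enough to be tested. RNAseq libraries came from pieces of frozen heart of 16 male Wistar rats, aged 6 to 8 weeks at the start, each library from 1 heart taken at week 6. The 6 DOX high rats (rats 30 to 33, 38 and 39) had received the anticancer anthracycline doxorubicin (DOX) in 5 weekly intravenous injections of 3 mg per kg, a cumulative dose of 15 mg per kg. The 10 rats of the saline control group (rats 5 to 10 and 34 to 37) had received saline on the same weekly schedule, with 5 injections per the labels and 6 per the methods. Both groups were of the same strain and sex. The chamber of the heart that each piece came from is not given in the sources used here, and the 2 groups differ in the mix of rat numbers, since rats 5 to 10 were all saline-treated.

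In the sarcomere, the heads of myosin heavy chains split ATP and pull on filaments of actin, and the troponin complex on those filaments, of which troponin I is the inhibitory subunit, makes this depend on calcium. The adult rat ventricle carries mostly the fast alpha myosin heavy chain and cardiac actin, whereas the fetal ventricle carries more of the slower beta chain, and skeletal alpha-actin is high around birth. Under a load on the heart, as in pressure overload, Myh7 and Acta1 are known to rise in rodents and Myh6 to fall, and the Myh7 to Myh6 ratio is a classical readout of this return of fetal isoforms.

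Between 13784896 and 18025615 fragments were counted per library. The differences between rats, and not the counting error, limited the precision for genes as abundant as these (common biological coefficient of variation 0.316, lowest count of a member in a library 1265). Saline rat 37 and DOX high rat 32 stood apart, each in its own way. The library of saline rat 37 was closer over all genes to the DOX high libraries (median Pearson r across genes 0.973) than to the other saline libraries (median r 0.946). Saline rats 6, 10 and 36 were also less like the other saline libraries (median r 0.946, 0.942 and 0.951) than the remaining saline rats, at 0.971 to 0.974. These libraries were still closer to saline than to DOX high libraries. The library of DOX high rat 32 had 553 genes more than 2-fold above every other heart, against at most 131 in any other library, and the highest scaling factor (1.36, others 0.885 to 1.20). Results are therefore given with and without rats 37 and 32 where they change. Since tissue pieces were sequenced, a lower RNA level per muscle cell and a smaller share of muscle cells in the piece cannot be told apart.

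Counts were scaled to CPM (counts per 1000000 counts of a library) with edgeR's TMM factors for comparisons between hearts, and TPM (transcripts per 1000000, which also divides by gene length) were used to compare genes with each other and for ratios. Of the 5 genes, only Acta1 passed an adjusted p of 0.05 over all 16 hearts, and it was higher in DOX high hearts. In that comparison 6.25% of all genes tested passed in either direction and 4.01% were higher in DOX high hearts. Without saline rat 37, 3 of the 5 genes passed (Myh6 lower, Myh7 and Acta1 higher), where 13% of all genes tested passed. The median log2 fold change of all genes was -0.0047 in the comparison of all 16 hearts.

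**Figure D1:**
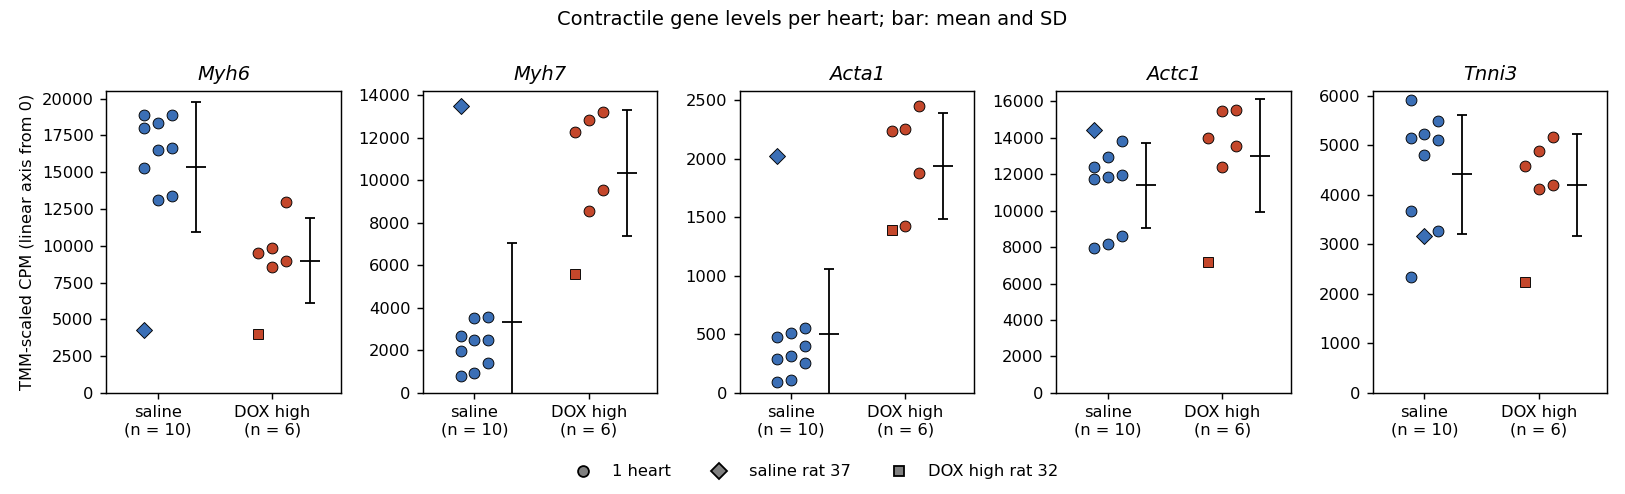
Level of each of the 5 genes in every heart, in TMM-scaled CPM, for the 10 saline and 6 DOX high hearts; points are hearts, the diamond is saline rat 37, the square is DOX high rat 32, and the dash with bars beside them is the group mean and SD (bars that would reach below 0 end at the axis). Saline rat 37 lies among or beyond the DOX high hearts for Myh6, Myh7 and Acta1, and rat 32 is the lowest DOX high heart in all 5 panels. In TPM this does not hold for Acta1, with 1865 TPM in rat 32 against 1302 in rat 31 and 1648 in rat 33.

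Myh6 encodes the fast alpha chain. Its level in saline hearts was 18345, 15314, 18862, 17981, 13380 and 13099 CPM in rats 5 to 10, and 18892, 16522, 16632 and 4286 CPM in rats 34 to 37. In DOX high hearts it was 8544, 12979, 4012, 9533, 9831 and 8943 CPM in rats 30, 31, 32, 33, 38 and 39. All 6 DOX high hearts lay below 9 of the 10 saline hearts, and the other saline heart, rat 37, lay below 5 of the 6. The saline mean was 15331 ± 4411 CPM (SD, n = 10) and the DOX high mean 8974 ± 2895 CPM (SD, n = 6). The log2 fold change was -0.77 (SE 0.28, 95% interval -1.37 to -0.18), which did not pass over all 16 hearts (edgeR quasi-likelihood test with Benjamini-Hochberg adjustment, adjusted p = 0.104). Without rat 37 the saline mean was 16559 ± 2225 CPM (SD, n = 9), the log2 fold change was -0.88 and the difference passed (edgeR, adjusted p = 0.0108). DOX high rat 32 had the lowest Myh6 level of all hearts in CPM, whereas in TPM saline rat 37 was lower (1056 against 1281 TPM in rat 32). Without rat 32 alone the log2 fold change was -0.62 (edgeR, adjusted p = 0.167).

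Myh7 encodes the slow beta chain. In the RefSeq annotation of chromosome 15, Myh6 is the nearest gene on one side of Myh7 among those that do not overlap it. The lncRNA gene LOC120096985, which overlaps Myh7, comes next after Myh6. Saline hearts had 1959, 1390, 2663, 3590, 3541 and 916.8 CPM in rats 5 to 10, and 2483, 2506, 812.8 and 13505 CPM in rats 34 to 37. DOX high hearts had 12842, 8565, 5600, 13202, 9542 and 12277 CPM in rats 30, 31, 32, 33, 38 and 39. Every DOX high heart was above 9 of the 10 saline hearts, and saline rat 37 was above every DOX high heart. Saline hearts averaged 3337 ± 3701 CPM (SD, n = 10), an SD larger than the mean, and DOX high hearts 10338 ± 2982 CPM (SD, n = 6). The log2 fold change of 1.63 (SE 0.49, 95% interval 0.60 to 2.66), or 3.1-fold, ranked 143 of 13607 from the highest but did not pass the threshold (edgeR, adjusted p = 0.0559). Without rat 37 the saline mean fell to 2207 ± 1025 CPM (SD, n = 9), the log2 fold change was 2.23 and the rise passed (edgeR, adjusted p = 0.000436).

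Acta1 encodes the actin of skeletal muscle, which the adult rodent heart makes at a low level. Saline hearts had 313.1, 253.4, 478.4, 556.7, 292.5 and 92.5 CPM in rats 5 to 10, and 512.8, 402.6, 107.2 and 2018 CPM in rats 34 to 37. In DOX high hearts it was at 2248, 1422, 1392, 1877, 2234 and 2453 CPM in rats 30, 31, 32, 33, 38 and 39. All 6 DOX high hearts exceeded 9 of the 10 saline hearts, and 3 of them (rats 30, 38 and 39) also exceeded saline rat 37. Acta1 rose from 503 ± 556 CPM (SD, n = 10) to 1938 ± 451 CPM (SD, n = 6), with a log2 fold change of 1.95 (SE 0.50, 95% interval 0.89 to 3.00), or 3.85-fold (edgeR, adjusted p = 0.0322). This rank of 84 among 13607 genes was the highest of the 5. Without rat 37 the saline mean was 334.4 ± 167.9 CPM (SD, n = 9) and the log2 fold change was 2.54 (edgeR, adjusted p = 0.000265). The call over all 16 hearts was close to the threshold: when each heart was left out in turn it held in 7 of 16 fits, with log2 fold changes from 1.82 to 2.54 and adjusted p (edgeR) from 0.000265 to 0.0650. It was lost without saline rat 5, 7, 8, 34 or 35 and without DOX high rat 30, 33, 38 or 39.

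Actc1 encodes the actin of adult heart muscle. It ranged in saline hearts from 7972 CPM in rat 10 over a median of 11894 to 14431 CPM in rat 37, and in DOX high hearts from 7170 CPM in rat 32 over a median of 13776 to 15528 CPM in rat 31. The groups overlapped, with every saline heart inside the DOX high range, but the low end of that range was rat 32 alone. The other 5 DOX high hearts ranged from 12389 to 15528 CPM, all above the saline median. The means were 11387 ± 2328 CPM (SD, n = 10) and 13023 ± 3108 CPM (SD, n = 6), and the log2 fold change of 0.19 (95% interval -0.20 to 0.59) did not pass (edgeR, adjusted p = 0.564). Without DOX high rat 32 the log2 fold change was 0.32 (edgeR, adjusted p = 0.243).

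The start regions of the actin genes are shown because their transcripts differed in response, 1 with a rise and the other without a detected change. Both are the 250 bases before the annotated start, read 5′ to 3′ on the gene's strand, from RefSeq (build GRCr8): Acta1 at chr19:68784195-68784444 and Actc1 at chr3:121271828-121272077, both on the minus strand. Capitals mark matches to the CArG box (the letters bound by serum response factor), to TATAAA, and to CATTCC (the letters bound by TEAD factors), which were searched on both strands.
Acta1: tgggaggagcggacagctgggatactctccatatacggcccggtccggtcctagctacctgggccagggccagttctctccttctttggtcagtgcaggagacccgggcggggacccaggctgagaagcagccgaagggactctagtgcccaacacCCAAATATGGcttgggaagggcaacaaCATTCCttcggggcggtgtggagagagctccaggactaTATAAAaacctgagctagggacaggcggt
Actc1: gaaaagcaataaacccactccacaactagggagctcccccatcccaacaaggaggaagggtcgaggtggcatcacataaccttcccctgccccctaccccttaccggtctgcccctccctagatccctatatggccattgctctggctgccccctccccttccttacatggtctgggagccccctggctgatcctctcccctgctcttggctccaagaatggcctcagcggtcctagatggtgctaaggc
The Acta1 window held all 3, with the CArG box beginning 94 bases, CATTCC 67 bases and TATAAA 29 bases before the start. The Actc1 window held none of these letters, while 1 CArG box began 3 bases after its start. Both starts are the annotated gene boundaries, and whether transcription begins there in these hearts was not examined. The 2 windows may thus not be matching parts of the 2 promoters. The lack of matches in this window does not show that the Actc1 promoter lacks these letters. Among 33469 such windows in the RefSeq table, 1.5% held a CArG box, 12.9% TATAAA and 12.1% CATTCC on either strand. Only exact matches were marked. These matches describe the sequence, no binding was measured here, and a link to the difference in response was not tested. The table's windows for Myh6 and Myh7 begin inside the annotated genes and are not shown.

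Tnni3 encodes the troponin I of adult heart muscle. In saline hearts it ranged from 2331 CPM in rat 6 over a median of 4958 to 5916 CPM in rat 9, and in DOX high hearts from 2243 CPM in rat 32 over a median of 4390 to 5177 CPM in rat 31. The groups overlapped, with 7 of the 10 saline hearts inside the DOX high range, whose low end was rat 32 alone. The other 5 DOX high hearts ranged from 4127 to 5177 CPM. The means of 4416 ± 1203 CPM (SD, n = 10) and 4201 ± 1038 CPM (SD, n = 6) differed by less than the spread between hearts. The log2 fold change was -0.07 (SE 0.21, 95% interval -0.52 to 0.38; edgeR, adjusted p = 0.868). It turned to 0.06 without DOX high rat 32 (edgeR, adjusted p = 0.893), so no direction can be given.

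Since rats 5 to 10 were all saline-treated, the fit was repeated within rats 30 to 39 alone, with 4 saline hearts against 6. No gene passed there, which is 0% of all genes tested (edgeR, 0 genes, with 1891 genes at an unadjusted p under 0.05), and the log2 fold changes were -0.66 for Myh6, 1.10 for Myh7 and 1.35 for Acta1 (edgeR, adjusted p = 0.495, 0.474 and 0.378). With rat 37 left out of these hearts as well they were -0.95, 2.42 and 2.51, and Myh7 and Acta1 passed (edgeR, adjusted p = 0.152, 0.0319 and 0.0322), where 2.2% of all genes tested passed. The directions of these 3 genes were thus the same within rats 30 to 39.

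Over all 16 hearts none of the 5 genes had groups that did not overlap in CPM, a separation seen in 0.889% of all genes tested. Without saline rat 37 the groups did not overlap for Myh6, Myh7 and Acta1, a separation seen in 3.63% of all genes tested.

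**Figure D2:**
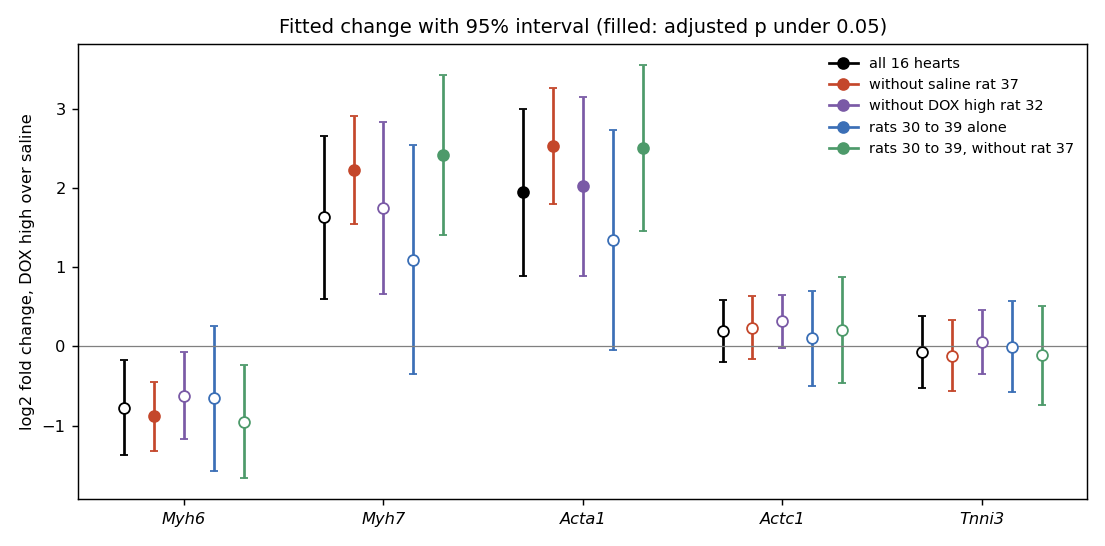
Log2 fold change of each gene, DOX high against saline, from 5 edgeR fits: all 16 hearts, without saline rat 37, without DOX high rat 32, rats 30 to 39 alone, and rats 30 to 39 without rat 37; bars are 95% intervals and filled points have an adjusted p under 0.05. Acta1 is filled in each fit but that of rats 30 to 39 alone, Myh7 in both fits without rat 37, Myh6 only in the fit of the 15 hearts without rat 37, and Actc1 and Tnni3 in none of the 5.

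On the TPM scale, which allows genes to be compared with each other, the order in saline hearts was Actc1 (10109 ± 1941 TPM, SD, n = 10), Tnni3 (7118 ± 1154 TPM), Myh6 (3376 ± 1053 TPM), Myh7 (762.3 ± 937.7 TPM) and Acta1 (475.4 ± 580.0 TPM). Actc1 was above Tnni3, and Tnni3 above Myh6, in all 10 saline hearts, and Myh6 was above Myh7 in 9 of 10, the exception being rat 37. Myh7 was above Acta1 in all 10, although the spreads of these neighbours overlapped. In DOX high hearts Actc1 (11795 ± 1559 TPM, SD, n = 6) and Tnni3 (7057 ± 1029 TPM) again came first, in this order in all 6 hearts. The next levels, Myh7 at 2351 ± 468 TPM, Myh6 at 1997 ± 511 TPM and Acta1 at 1848 ± 356 TPM, lay closer together, and those of Myh7 and Myh6, and of Myh6 and Acta1, differed by less than their spread. Myh7 was above Acta1 in 5 of the 6 DOX high hearts, the exception being rat 32. Myh6 was still above Myh7 in 2 of the 6 DOX high hearts (rats 31 and 38) and above Acta1 in 3 of 6. Among all genes ordered by TPM within a heart, the median place of Myh7 was 164 in saline and 37.5 in DOX high hearts, that of Acta1 289.5 and 45.5, and that of Myh6 24.5 and 45.

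The Myh7 to Myh6 ratio was taken within each heart, so that the scaling of the library cancels. From the lowest to the highest it was 0.0497, 0.0712, 0.0924, 0.109, 0.134, 0.144, 0.154, 0.203 and 0.269 in 9 saline hearts (rats 36, 10, 6, 5, 34, 7, 35, 8 and 9). Saline rat 37 had a ratio of 3.21, the highest of all 16 hearts. In DOX high hearts the ratio was 0.672, 0.988, 1.40, 1.41, 1.42 and 1.53 (rats 31, 38, 39, 33, 32 and 30). The transcripts of both chains were thus near equal, or Myh7 was ahead, in 5 of the 6 DOX high hearts, and the lowest DOX high heart was still 2.49-fold above the highest of the 9 saline hearts. The geometric mean was 0.169 in saline and 1.19 in DOX high hearts, a difference of 2.82 on the log2 scale or 7.06-fold. A two-sided exact permutation test over 8008 regroupings gave p = 0.0020, and 0.0020 after adjustment for 2 ratios. All DOX high hearts (6 of 6) lay above the saline median. The SD of the log2 ratios was 1.65 in saline hearts (n = 10) and 0.46 in DOX high hearts (n = 6). Saline log2 ratios ran from -4.33 to 1.68, with rat 37 above every DOX high heart. Without rat 37 the saline geometric mean was 0.122 and the difference 3.29 (exact permutation p = 0.00020, the smallest that this number of hearts allows).

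The geometric mean of this ratio was 0.133 in saline rats 5 to 10 and 0.240 in saline rats 34 to 37, or 0.101 in rats 34 to 36 without rat 37. Within rats 30 to 39 alone, with 4 saline hearts against 6, the difference was 2.31 and did not pass (exact permutation p = 0.0524). With rat 37 left out of these it was 3.56 (exact permutation p = 0.0119, the smallest that 3 against 6 allows). When the ratios were compared without the log, the difference was 0.793 and did not pass either (exact permutation p = 0.0669).

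**Figure D3:**
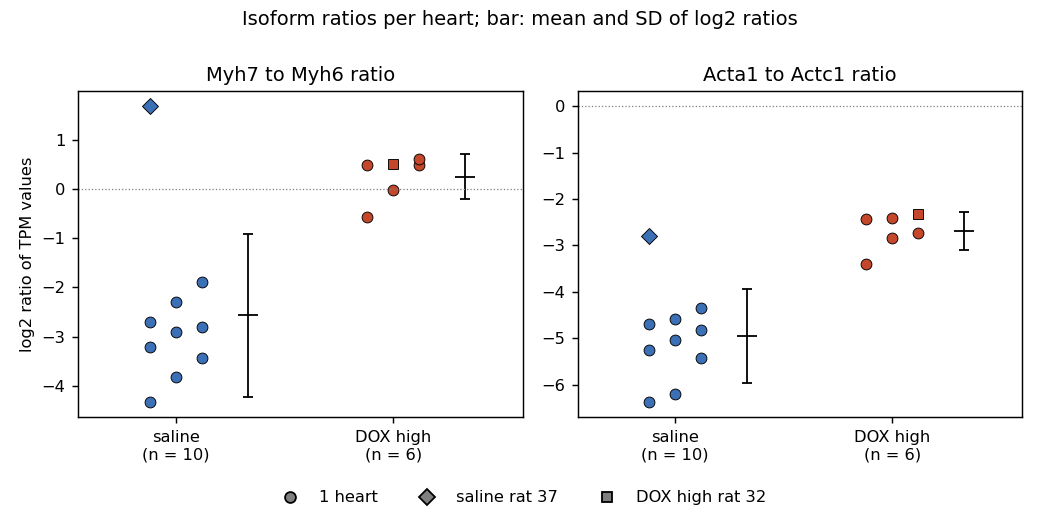
Log2 ratios of Myh7 to Myh6 and of Acta1 to Actc1 in each heart, from TPM values, for 10 saline and 6 DOX high hearts; the dash with bars is the mean and SD of the log2 ratios, the dotted line marks equal levels, the diamond is saline rat 37 and the square DOX high rat 32. The 9 other saline hearts, at ratios of 0.0497 to 0.269 (log2 -4.33 to -1.89) and 0.0120 to 0.0493 (log2 -6.38 to -4.34), lie below every DOX high heart in both panels.

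The summed level of both myosin heavy chain transcripts differed far less than their ratio. Myh6 plus Myh7 came to 4138 ± 651 TPM in saline hearts (SD, n = 10, range 2985 to 5157) and 4348 ± 670 TPM in DOX high hearts (SD, n = 6, range 3101 to 4914), a difference smaller than the spread within either group. Without DOX high rat 32 the DOX high sum was 4597 ± 308 TPM (SD, n = 5), and the difference then exceeded the SD of that group but not that of the saline hearts. Saline rat 37, with the highest ratio, had a sum of 4442 TPM, well inside the saline range. Rat 32 had the lowest sum among DOX high hearts, 3101 TPM, with a ratio of 1.42 that lay inside the range of the other DOX high hearts.

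**Figure D4:**
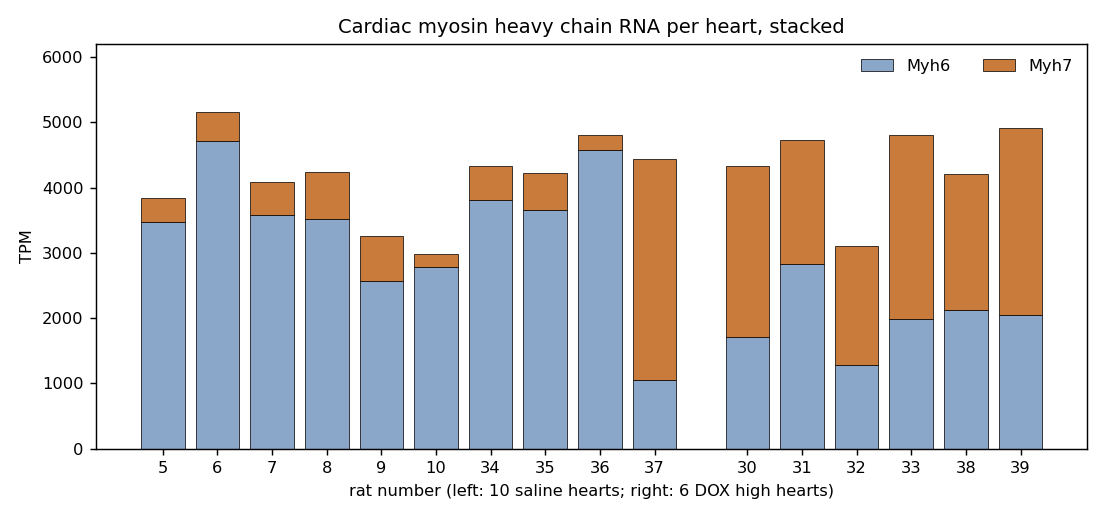
Stacked bars of Myh6 (lower part) and Myh7 (upper part) in TPM for each rat, with the 10 saline hearts on the left and the 6 DOX high hearts on the right. The Myh7 part is at most 716.2 TPM in saline hearts other than rat 37 and lies between 1820 and 3386 TPM in DOX high hearts and rat 37, while the whole bars span 2985 to 5157 TPM.

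The Acta1 to Actc1 ratio ran from 0.0120 (rat 10) to 0.0493 (rat 8) in 9 saline hearts, and was 0.145 in rat 37. DOX high hearts had 0.0950, 0.139, 0.150, 0.187, 0.188 and 0.201 (rats 31, 33, 30, 38, 39 and 32). All 6 were above the 9 saline hearts, by at least 1.93-fold, and 4 of 6 were above rat 37 too. Skeletal actin transcripts thus remained a minor part beside cardiac actin in every heart. The geometric means were 0.0323 and 0.155, a difference of 2.27 on the log2 scale or 4.81-fold (p = 0.00037 by the same two-sided exact permutation test, and 0.00075 after adjustment for 2 ratios; 6 of 6 above the saline median). Without rat 37 the difference was 2.51 (exact permutation p = 0.00020, the smallest possible here), and within rats 30 to 39 alone it was 1.94 (exact permutation p = 0.0143). The geometric mean was 0.0278 in saline rats 5 to 10 and 0.0404 in saline rats 34 to 37, or 0.0264 without rat 37. The sum of both actins was 10584 ± 2452 TPM in saline hearts (SD, n = 10) and 13642 ± 1489 TPM in DOX high hearts (SD, n = 6). This difference was larger than the SD of either group and was not tested. Saline rat 37 had the highest sum of all hearts, 16480 TPM. Without it the saline sum was 9929 ± 1392 TPM (SD, n = 9). Without DOX high rat 32 the DOX high sum was 14144 ± 941 TPM (SD, n = 5).

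The order of hearts was not the same for both ratios. DOX high rat 31 was lowest in both, with the highest Myh6 level of its group, whereas rat 30 was highest for the myosins and rat 32 highest for the actins. Saline rat 37 exceeded every DOX high heart in the myosin ratio and 2 of 6 in the actin ratio. The 5 genes together took 3.42 ± 0.367% of all counts in saline hearts (SD, n = 10) and 3.86 ± 0.579% in DOX high hearts (SD, n = 6), with the lowest shares in saline rat 10 (2.53%) and DOX high rat 32 (2.72%).

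Hearts of the same group differed from each other, and the 5 genes could be followed across them. In the 9 saline hearts other than rat 37, Myh7 and Acta1 moved together (log2 CPM, Pearson r = 0.893, permutation p = 0.0028, Spearman rho = 0.767). Rats 36 and 10 had the lowest levels of both, and rat 8 the highest. The relation without both rats 36 and 10 was not computed. With rat 37 included, r was 0.948 and rho 0.830 (n = 10, permutation p adjusted over 20 relations 0.0044 for r and 0.10 for rho), and r was 0.840 without the 2 hearts farthest from the median Myh7 level, rats 37 and 36. Myh7 and Actc1 (r = 0.838) and Acta1 and Actc1 (r = 0.840) also passed by Pearson's r in saline hearts (permutation, adjusted p = 0.0047 for both), with Spearman rho of 0.673 and 0.709 that did not pass (permutation, adjusted p = 0.194 for both). Without their 2 farthest hearts these r were 0.848 and 0.779, but rho fell to 0.381 and 0.429. For Myh7 and Acta1, rho was 0.690 without rats 37 and 36. Of the 20 relations, 10 per group, 3 passed by Pearson's r and none by Spearman's rho.

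The negative relation of Myh6 and Myh7 in saline hearts (r = -0.668, rho = -0.103, permutation p = 0.0806 and 0.784; adjusted p = 0.161 and 0.944) rested on rat 37, without which r was 0.318 (n = 9, permutation p = 0.404), so that the sign turned and no relation was detected. The relations of Myh6 with Acta1 (r = -0.541 to 0.643) and with Actc1 (r = -0.263 to 0.486) turned sign in the same way. Those of Tnni3 with Myh7 (0.209 to 0.771) and with Actc1 (0.577 to 0.839) rose. All 10 relations were thus positive in log2 CPM in the 9 saline hearts other than rat 37. In log2 TPM over all 10 saline hearts, r of Tnni3 was 0.0069 with Myh7, -0.012 with Actc1, -0.014 with Acta1 and 0.208 with Myh6. The relations of Tnni3 were thus weaker in TPM than in CPM. The 3 relations that passed in CPM had r of 0.947, 0.838 and 0.885 in TPM. Log2 TPM was not examined without rat 37. For Myh6 and Myh7, r was 0.0056 without rats 37 and 10. In the 6 DOX high hearts no relation passed. The closest was that of Actc1 and Tnni3 (r = 0.977, rho = 0.886, exact permutation p = 0.0153 and 0.0333; adjusted p = 0.0764 and 0.194), which fell to 0.564 without rats 32 and 31. Of the 10 relations in DOX high hearts, 7 changed sign when the 2 farthest hearts were left out.

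**Figure D5:**
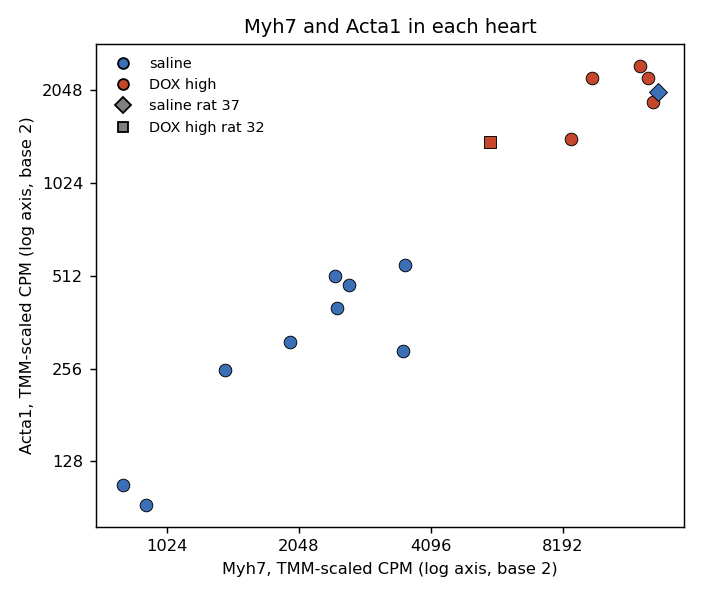
Acta1 against Myh7 in each heart, in CPM on log axes, for 10 saline and 6 DOX high hearts, with rat 37 as a diamond and rat 32 as a square. Saline hearts run along a rising band (Pearson r 0.948, or 0.893 without rat 37), with rats 10 and 36 at the low end.

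The genes whose levels varied most like each member were taken from 8741 genes over the 16 hearts, on log2 CPM with the group means subtracted, as a description without a test. The identifiers closest to Myh6 were ENSRNOG00000006444 (r = 0.986, or 0.961 without rat 37) and ENSRNOG00000019404 (r = 0.957, or 0.932). The first fell from 233.6 ± 51.8 CPM (SD, n = 10) to 143.8 ± 30.4 CPM (SD, n = 6), a log2 fold change of -0.70 (edgeR, adjusted p = 0.0361), and the second, with -0.45, did not pass (edgeR, adjusted p = 0.102). Closest to Myh7 were ENSRNOG00000002618 (r = 0.952, or 0.899 without rat 37) and ENSRNOG00000037645 (r = 0.949, or 0.887), with log2 fold changes of 0.68 and 1.83 that did not pass (edgeR, adjusted p = 0.183 and 0.105). Both had their highest saline level in rat 37, at 983.9 CPM and 98.9 CPM. Among the members themselves, Myh7 and Acta1 were the most alike on this measure over 16 hearts (r = 0.933, or 0.866 without rat 37). Myh6 and Myh7 had r = -0.431, which turned to 0.363 without rat 37, and the most alike members were then Actc1 and Tnni3 (r = 0.891, against 0.738 with rat 37).

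In the RefSeq annotation, Acta1 and Tnni3 overlap no other gene, while Myh6, Myh7 and Actc1 overlap 3, 3 and 1 others, among them the microRNA genes Mir208a in Myh6 and Mir208b in Myh7. The libraries kept strand, but the counting did not use it, so fragments of an overlapping antisense transcript cannot be told apart from those of the member. Fragments that fit several places, as those of near-identical stretches of Myh6 and Myh7 or of Acta1 and Actc1 can, were not counted.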

How the data were processed

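For 10 saline and 6 DOX high rats, poly(A) strand-specific libraries of heart RNA were read by the authors as 75 bp pairs. Hisat2 2.0.4 placed the pairs on Rnor_6.0, and featureCounts (subread 1.5.0) at its defaults gave fragments per Ensembl 81 gene. The authors deposited these counts as whole numbers, not normalized. The deposited TPM values were made by the authors from these counts in R 3.1.0, by gene length and library total; 1 TPM cell is NA. Groups came from the labels, and each library is 1 rat. No pair of libraries of a group agreed within sampling noise (chi-square over degrees of freedom at least 13.1 in 60 pairs). Gene lengths relative to each other followed from counts and TPM, and Myh6 was 7.52 times and Acta1 1.79 times as long as Tnni3.

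The comparison of groups used edgeR 4.0.16 under R 4.3.3 (filterByExpr, TMM, glmQLFit, glmQLFTest, no covariates, Benjamini-Hochberg adjustment over the 13607 genes tested, threshold 0.05), after tests on simulated data. Ratios of TPM values were compared on the log2 scale by exact permutation tests, and relations among members by Pearson's r and Spearman's rho with 100000 resamples or exactly, both with Python 3.11.15 and scipy 1.17.1. Alternatives were upper-quartile scaling, scaling without the members, other filters on low counts, DESeq2 1.42.0, limma 3.58.1 on log2 TPM with 1 or 0.1 added, a fit of rats 30 to 39 only, the block of rat numbers as a covariate, and leaving out each rat; those that leave out rat 37 together with another choice were added after seeing the data.

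Named genes were the 5 members and, for each, the 2 of mean log2 CPM of at least 3 most like it, of which at most 2 identifiers with a positive and 2 with a negative fold change are given. The members, lists and tests were chosen with earlier results of these data known. Symbols of the members came with the rule that chose them, since the files give Ensembl identifiers only. None of the 32545 identifiers (0) matched the RefSeq gene table, so other sarcomere genes, markers of cell types and a Tnni1 to Tnni3 ratio were not analysed here. Intervals cover the spread between rats.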

Additional observations from a re-analysis of the deposited data

Results flagged for a closer look

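Of 14 sets of values, one per gene or ratio and group, 6 had a heart farther from the others than Dixon's 95% critical value allows, where chance gives about 0.7. Of these, 5 belong to saline rat 37: Myh6 at 4286 CPM (next lowest saline heart 13099), Myh7 at 13505 CPM (next highest 3590), Acta1 at 2018 CPM (next highest 556.7), a Myh7 to Myh6 ratio of 3.21 (next highest 0.269) and an Acta1 to Actc1 ratio of 0.145 (next highest 0.0493). All come from 1 heart, so they are not independent of each other. The remaining value is Tnni3 at 2243 CPM in DOX high rat 32, where the next lowest DOX high heart had 4127 CPM. Rat 32 has the highest scaling factor (1.36), which lowers its CPM. In TPM its Tnni3 level was 5384, against 6818 in the next lowest DOX high heart, rat 38. The rule was not applied to TPM. Actc1 in rat 32 fell just short of the rule in CPM (0.6244 against a critical value of 0.625).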

How the results depend on the processing

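The calls of Myh6, Myh7 and Acta1 depended on which rats were compared. For Myh6, log2 fold changes passed with DESeq2 (-0.78) and without rats 37 and 32 (-0.73), and ran from -0.91 to -0.62 when each rat was left out. Myh7 passed with limma on log2(TPM + 1) (2.11) and log2(TPM + 0.1) (2.12), within rats 30 to 39 without rat 37 (2.42), with the number block as a covariate without rat 37 (2.42) and without rats 37 and 32 (2.36), and ran from 1.51 to 2.23 when each rat was left out. Acta1 did not pass within rats 30 to 39 alone or with the number block (1.35 in both, edgeR adjusted p = 0.378 and 0.350), and ran from 1.82 to 2.54. Tnni3 turned positive with the number block (0.0026), without rats 37 and 32 (0.015) and without rat 32 (0.055), with a range of -0.15 to 0.055 over single rats left out. The Myh7 to Myh6 ratio lost its call as a linear difference (0.793) and within rats 30 to 39 (2.31), and ran from 2.62 to 3.29 when each rat was left out. Against 851 genes called by edgeR, DESeq2 called 1574, limma 255 and 285, rats 30 to 39 alone 0 (1891 at an unadjusted p under 0.05), the number block 2, rats 30 to 39 without rat 37 307, the block without rat 37 347, without both rats 1766, and leaving out each rat 345 (DOX high rat 38) to 1762 (rat 37). Of the 5 members 1 was called by edgeR; in these settings the numbers were 2, 2, 2, 0, 0, 2, 2, 3 and 0 to 3. Genes tested numbered 13607 by edgeR over all 16 hearts, with limma and with the number block, and 13365 with DESeq2. They numbered 13730 in rats 30 to 39, 13946 there without rat 37, 13530 with the block without rat 37 and 13572 without both rats. Leaving out each rat gave 13515 to 13788. The share called was 6.25% over all 16 hearts and 13% without rat 37 alone. It was 0% in rats 30 to 39 and 2.2% there without rat 37. The causes were not tested. Actc1 passed in none of 28 settings and the Acta1 to Actc1 ratio in all 23. Upper-quartile scaling, other count filters and scaling without the members changed no call. DESeq2 gave no adjusted p for 242 genes. The contractile and marker lists and the Tnni1 to Tnni3 ratio were not run, since no identifier could be named. No paired analysis was possible because rat numbers are not shared between saline and DOX high.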
